A study of Mus musculus with 6 samples.

Results

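Expression of the genes for histone demethylases, histone deacetylases and sirtuins was examined in muscle stem cells (MuSCs) of mice treated with resolvin D1 (RvD1) or vehicle. The set was defined by gene symbol alone. It took every gene named Kdm1 to Kdm8 with or without a letter from a to d, every numbered Hdac gene, and Sirt1 to Sirt7, and left out the Y-linked Kdm5d. It held 35 of the 49671 genes in the files, of which 17 were Kdm, 11 Hdac and 7 Sirt genes. The 6 libraries came from female C57BL/6 mice aged 4 to 6 months, 3 given 100 ng of RvD1 by daily IP injection and 3 given the 0.1% ethanol vehicle. All mice had both TA muscles injured with 50 μL of 1.2% BaCl2 and were sampled at day 3, so the controls were injured too. The 2 TA muscles of each mouse were pooled, and FACS kept the cells that carried β1-integrin with CXCR4 and lacked Sca-1, CD45, CD11b and Ter119. The sample labels also list CD31 among the markers selected against. The libraries, 1 per mouse, held 16148026 to 28149176 expected counts each.

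Acetyl and methyl groups on the lysines of histone tails help to set how readily a gene is transcribed, and many enzymes of this set take them off. Others act mainly elsewhere, such as the mitochondrial sirtuins, the tubulin deacetylase Hdac6 and the polyamine deacetylase Hdac10. Hdac proteins of classes I, II and IV use zinc, sirtuins use NAD, Kdm1 proteins use flavin, and the other Kdm proteins have a JmjC domain that needs iron and 2-oxoglutarate. In muscle, class I deacetylases repress differentiation genes in myoblasts together with MyoD, class IIa deacetylases bind Mef2 factors and leave the nucleus when calcium signals phosphorylate them, Kdm1a and Kdm6a have been tied to activation of myogenic genes, and Sirt1 links NAD to the state of the stem cell.

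Markers of the label were found in the sorted cells. The 12 MuSC markers looked at summed to between 2732 and 3056 TPM with RvD1 and between 2535 and 2842 TPM with vehicle. All 12 had enough counts to be tested. So had all 10 endothelial and 14 of 16 leukocyte markers, so passing that filter does not tell cell types apart. The MuSC markers included Itgb1 (486 ± 38.1 TPM with RvD1 and 454 ± 13.1 TPM with vehicle, SD, n = 3), Myod1 (364 ± 117 and 348 ± 25.7 TPM) and Myf5 (160 ± 59.6 and 141 ± 16.7 TPM). Pax7 (4.03 to 8.50 TPM over the 6 libraries) and the sort marker Cxcr4 (11.7 to 29.8 TPM) were lower. The leukocyte gene Lyz2, at 17.55 to 61.1 TPM, and the fibro-adipogenic marker Ly6a, at 17.25 to 39.7 TPM, lay above Pax7 in every library. Lyz2 was the highest of the leukocyte markers. Others lay below Pax7 in every library, such as the leukocyte marker Ptprc (0.08 to 1.13 TPM) and the fibro-adipogenic marker Pdgfra (1.57 to 3.55 TPM). TPM is a level scaled for transcript length and library size. Leukocyte and endothelial markers were low in sum, while fibro-adipogenic markers were not. The 16 leukocyte markers summed to between 50.6 and 76.4 TPM with RvD1 and between 67.9 and 114 TPM with vehicle, all 14 of those tested had a log2 fold change below 0 (median −0.49, 4 with an unadjusted p under 0.05 and 0 with an adjusted one), and S100a9 had 3 counts or fewer in every library. The 10 endothelial markers summed to between 20.4 and 28.8 TPM with RvD1 and between 13.4 and 39.3 TPM with vehicle, with 8 of 10 below 0 (median −0.90). The 8 fibro-adipogenic markers summed to 571 TPM in RvD1 replicate 1 and to between 244 and 360 TPM in the other 5 libraries, with 5 of the 7 tested above 0 (median 0.42). Most of that sum came from Dcn, an extracellular matrix proteoglycan, at 450 TPM in RvD1 replicate 1 and 182 to 284 TPM elsewhere. Over the libraries Lum was at 23.8 to 53.7 TPM, Mfap5 at 8.21 to 24.2 TPM and Dpt at 2.08 to 11.97 TPM. Pdgfra, Pi16 and Col15a1 were at 3.55 TPM or lower in every library, so the sum does not describe each marker of the list. Of the 12 MuSC markers, 9 were above 0 and 3 below (median 0.08). Over all genes tested, 53.5% had a log2 fold change above 0, and 3.47% had an unadjusted edgeR p under 0.05 in either direction. The part of these markers in the results given here was not tested. In bulk RNA, a shift in the mix of sorted cells and a change of RNA per cell cannot be told apart.

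Levels of the 35 genes spanned a wide range. On the TPM scale, 4 genes had a mean above 100 TPM, namely Hdac2, Hdac1, Hdac3 and Kdm1a, and 21 were above 10 TPM. The 11 Hdac genes summed to 786 ± 22.1 TPM with RvD1 and 773 ± 14.3 TPM with vehicle (SD, n = 3), the 17 Kdm genes to 441 ± 32.6 and 405 ± 28.6 TPM, and the 7 Sirt genes to 174 ± 34.6 and 148 ± 20.9 TPM. On counts scaled by library size, given below, the Hdac sum was lower with RvD1. Kdm4d, a demethylase best known from testis, had 2 expected counts in RvD1 replicate 2, 1 in RvD1 replicate 3 and 0 in the other 4 libraries, at or under the floor of 3 counts that counting error allows, and was the 1 member too low to be tested. Hdac9 was the lowest of the 34 tested, at 0.43 to 1.05 TPM.

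**Figure D1:**
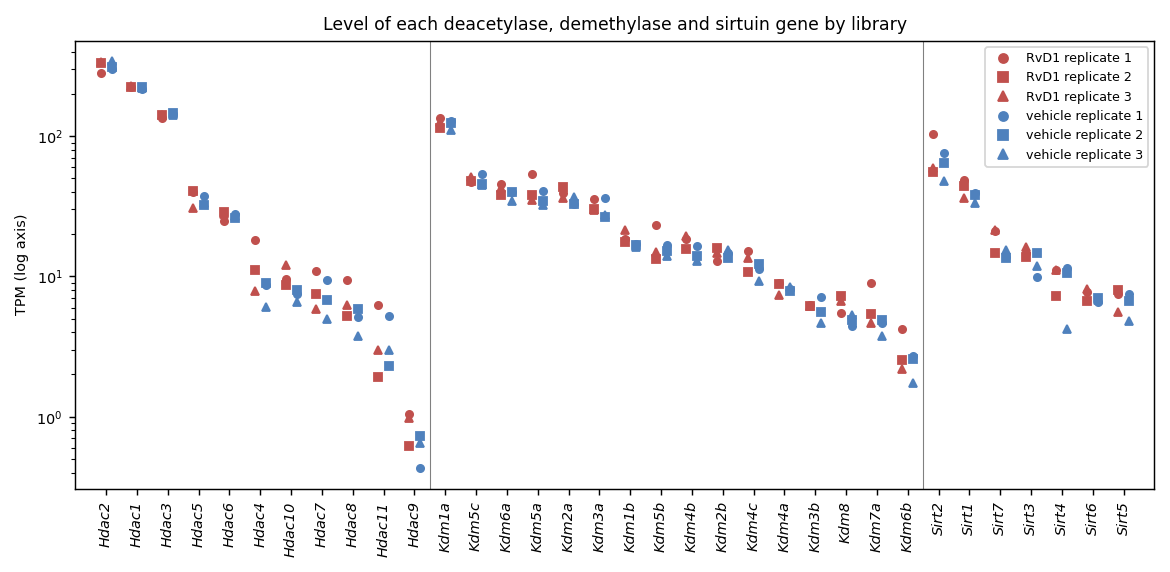
TPM (log axis) of each gene in the 6 libraries, with RvD1 in red and vehicle in blue and a different symbol for each replicate number. Genes are ordered by mean level within the Hdac, Kdm and Sirt families, and Kdm4d is left out because it is listed at 0 in most libraries. Hdac1, Hdac2 and Hdac3 lie above every other Hdac gene in all libraries.

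Among the deacetylases, transcripts of class I made up between 85.4% and 89.7% of the summed Hdac TPM in every library. Of class I, Hdac1, Hdac2 and Hdac3 are nuclear catalytic subunits of corepressor complexes. Hdac2 measured 282, 331 and 335 TPM with RvD1 (replicates 1, 2 and 3, the order used throughout) and 299, 312 and 343 TPM with vehicle. Hdac1, which shares the Sin3, NuRD and CoREST complexes with Hdac2, measured 225, 223 and 227 TPM with RvD1 and 217, 222 and 219 TPM with vehicle. Hdac3, the catalytic subunit of the NCoR and SMRT complexes, measured 134, 141 and 143 TPM with RvD1 and 143, 145 and 141 TPM with vehicle. The order Hdac2, Hdac1, Hdac3 held in all 6 libraries without overlap of their ranges, while within each gene the treated and control values lay close together. The fourth class I gene, Hdac8, was at 3.76 to 9.45 TPM.

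Class IIa, whose members act as signal-dependent corepressors more than as enzymes, contributed between 5.67% and 9.25% of the Hdac TPM. Hdac5 was its most abundant gene, at 30.6 to 40.5 TPM, followed by Hdac4 at 6.04 to 18.1 TPM, Hdac7 at 4.98 to 11.02 TPM and Hdac9. In class IIb, Hdac6, the cytoplasmic tubulin deacetylase, was at 25.0 to 28.8 TPM and Hdac10, a polyamine deacetylase, at 6.61 to 12.1 TPM. Hdac11, the sole class IV gene, was at 1.92 to 6.23 TPM. Of the 10 pairs of neighbours in the order of Hdac levels, 6 had ranges over the libraries that did not overlap. The ranges of Hdac4, Hdac10, Hdac7, Hdac8 and Hdac11 overlapped from each gene to the next.

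Kdm1a, also called LSD1, which removes methyl groups from lysine in the CoREST complex, was the most abundant demethylase. It measured 134, 114 and 126 TPM with RvD1 and 128, 124 and 111 TPM with vehicle, above every other Kdm gene in all libraries. Its paralog Kdm1b was at 16.2 to 21.4 TPM. The next levels were those of the X-linked Kdm5c (44.8 to 53.5 TPM) and Kdm6a (34.5 to 45.5 TPM), of Kdm5a (32.5 to 53.9 TPM), Kdm2a (32.6 to 43.6 TPM) and Kdm3a (26.3 to 36.4 TPM). Kdm5 proteins erase the methyl marks of active promoters, Kdm6 proteins erase the mark that Polycomb writes, Kdm2a binds CpG islands, and Kdm3a is a hypoxia-responsive demethylase. Neighbours among these 5 genes overlapped, Kdm3a lay above the next gene, Kdm1b, without overlap, and 5 of the 16 neighbouring Kdm pairs were without overlap.

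Paralogs of the demethylases stood at unequal levels. Kdm6a was above Kdm6b (1.74 to 4.21 TPM) in all libraries, and Kdm3a was above Kdm3b (4.66 to 7.15 TPM). Kdm4b (12.8 to 19.3 TPM) and Kdm4c (9.33 to 15.3 TPM) were above Kdm4a (7.37 to 9.0 TPM), and their ranges overlapped each other. Kdm5b lay at 13.4 to 23.4 TPM and Kdm2b, a subunit of a variant Polycomb complex, at 12.8 to 16.1 TPM. Kdm7a was at 3.76 to 8.99 TPM and Kdm8 at 4.41 to 7.25 TPM.

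Sirt2, the mainly cytosolic sirtuin, and Sirt1, a nuclear one, led their family. Sirt2 measured 103, 55.7 and 58.8 TPM with RvD1 and 75.4, 64.8 and 47.7 TPM with vehicle, so that RvD1 replicate 1 stood well above the other 5 libraries and the groups overlapped. Sirt1 measured 48.3, 44.4 and 36.1 TPM with RvD1 and 39.5, 38.1 and 33.5 TPM with vehicle. Sirt7, the nucleolar sirtuin, measured 21.0, 14.6 and 21.4 TPM with RvD1 and 13.7, 13.6 and 15.5 TPM with vehicle. Sirt6, which acts at DNA breaks and telomeres, was at 6.61 to 8.14 TPM. The mitochondrial Sirt3, Sirt4 and Sirt5 were at 9.90 to 16.3, 4.20 to 11.4 and 4.85 to 7.97 TPM. Except between Sirt1 and Sirt7, neighbouring sirtuins overlapped in level.

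The comparison of treatments asked whether RvD1 altered these transcripts in injured muscle. It was made with edgeR's quasi-likelihood test on the expected counts, adjusted by the Benjamini-Hochberg method over the 14494 genes with enough counts. None of the 34 members tested had an adjusted p under 0.05 (0 of 34, against 0.00% of all genes tested), and their smallest adjusted p was 0.971. DESeq2 also called 0 members. A change above 2-fold was found for 0 members and for 1.60% of all genes tested. An unadjusted p under 0.05 was found for 1 member, Hdac10, which was higher with RvD1. Over all genes, 3.47% had an unadjusted p under 0.05 in either direction and 1.83% had one and were higher, so 1 of 34 is near the background.

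The intervals show what size of change these libraries leave room for. The 95% interval of the log2 fold change held 0 for 33 of the 34 members. It lay inside 2-fold in both directions for 32, the exceptions being Hdac9 and Hdac11. The share of all genes inside 2-fold is not given here, so that count cannot be read as particular to the members. The interval lay inside 1.5-fold in both directions for 19 members, while 56.9% of all genes tested had so narrow an interval. Thus 19 of 34 is near the share over all genes. The abundant class I genes and Kdm1a were among the most closely bounded. Hdac1 had a fold change of 0.960 with an interval from 0.845 to 1.09, Hdac2 of 0.955 (0.816 to 1.12), Hdac3 of 0.920 (0.803 to 1.05) and Kdm1a of 0.946 (0.826 to 1.08). None of the 4 passed the test on counts normalized by TMM, a scaling for library composition. On the log2(TPM + 1) scale the differences of Hdac1 and Kdm1a had the opposite sign, at 0.04 for both, so their direction depends on the scale. The log2 fold changes from edgeR were −0.06 for Hdac1 (SE 0.08, unadjusted p = 0.489), −0.07 for Hdac2 (SE 0.10, unadjusted p = 0.523) and −0.08 for Kdm1a (SE 0.09, unadjusted p = 0.371), each with an adjusted p of 0.971.

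**Figure D2:**
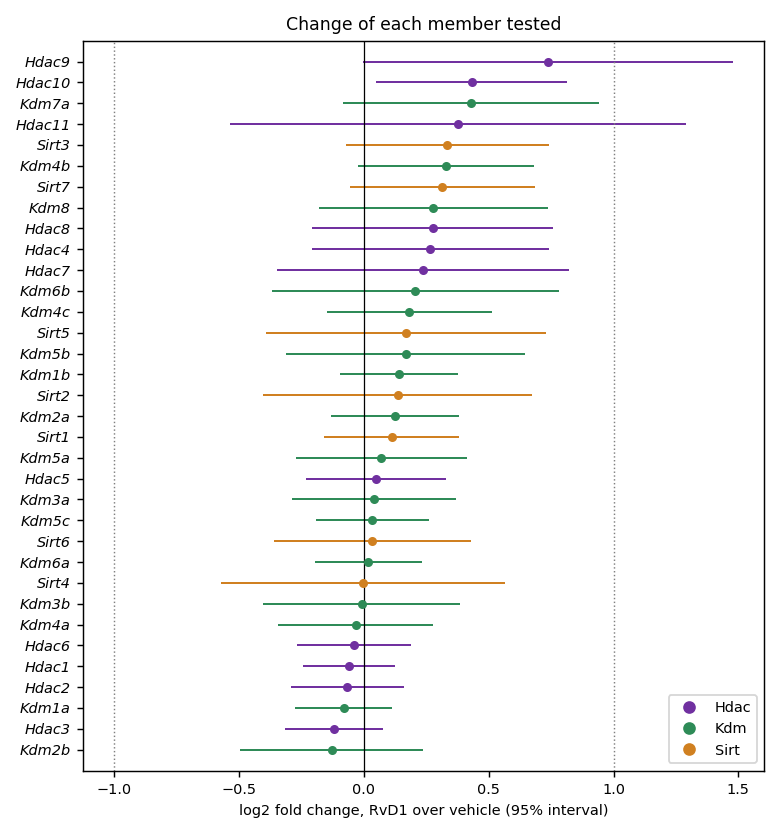
Log2 fold change of RvD1 over vehicle for the 34 members tested, from edgeR, with the 95% interval as a line, colored by family; dotted lines mark a 2-fold change. The interval of Hdac10 alone lies to 1 side of 0, from 0.05 to 0.82, and the widest are those of Hdac11 and Hdac9.

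The groups did not overlap on TMM-normalized CPM (counts scaled by library size) for 3 members, Hdac9, Hdac10 and Sirt3, all higher with RvD1. This is 3 of 34, where 4.77% of all genes tested were higher without overlap and 4.84% lower, and 0 members were lower. On the TPM scale the members without overlap were Kdm1b, Kdm8, Hdac1 and Hdac10, all higher with RvD1, beside 8.89% of all genes tested that were higher without overlap on that scale and 2.52% that were lower. Hdac10 alone was in both lists.

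Hdac10 (ENSMUSG00000062906, chromosome 15 of GRCm38, 89123307 to 89128700) measured 13.0, 12.3 and 16.4 CPM with RvD1 against 10.3, 10.97 and 9.55 CPM under vehicle. Each treated library lay above each control library, with RvD1 replicate 3 the highest. The log2 fold change was 0.43 (SE 0.17, edgeR unadjusted p = 0.0313 and adjusted p = 0.971). With 1 library left out it ranged from 0.30 to 0.51.

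Hdac9 (ENSMUSG00000004698, chromosome 12, 34047580 to 34917095), a class IIa gene that Mef2 factors can induce, had 61, 47 and 47 expected counts with RvD1 and 19, 27 and 27 with vehicle, or 2.76, 1.68 and 2.60 CPM and 1.18, 1.55 and 1.46 CPM. Its log2 fold change of 0.74 (SE 0.33, edgeR unadjusted p = 0.0514 and adjusted p = 0.971) was the highest of the set and came from its least abundant gene tested. On the TPM scale RvD1 replicate 2, at 0.62, lay below vehicle replicates 2 and 3, at 0.73 and 0.65, and the groups overlapped.

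Sirt3 (ENSMUSG00000025486, chromosome 7, 140863666 to 140882309), the main mitochondrial deacetylase, measured 11.2, 11.4 and 13.1 CPM with RvD1 and 7.79, 10.8 and 9.65 CPM with vehicle. The lowest treated library stood a little above vehicle replicate 2. Its log2 fold change was 0.34 (SE 0.18, edgeR unadjusted p = 0.0947 and adjusted p = 0.971), and it was 0.22 without vehicle replicate 1. Exons of Ric8a and Psmd13 on the other strand cover 12.7% of its exon bases, and it is not known whether reads there were told apart, since the methods call the data single-stranded while the SMARTseq and Nextera kits do not mark strand and the RSEM setting is not given.

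Kdm4b, which erases repressive methylation in heterochromatin, had the third smallest unadjusted p. It measured 37.1, 33.0 and 42.2 CPM with RvD1 and 34.5, 30.7 and 24.2 CPM with vehicle, with vehicle replicate 1 above RvD1 replicate 2. Its log2 fold change was 0.33 (SE 0.16, edgeR unadjusted p = 0.0637 and adjusted p = 0.971), and it was 0.20 without vehicle replicate 3. For Sirt7, which measured 18.9, 14.3 and 19.6 CPM with RvD1 and 12.9, 14.3 and 15.1 CPM with vehicle, the log2 fold change was 0.32 (SE 0.16, edgeR unadjusted p = 0.0875 and adjusted p = 0.971).

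Among members with a log2 fold change below 0 on TMM-normalized counts, the smallest unadjusted p values were those of Hdac3, Kdm1a (whose sign turned on TPM) and Kdm2b. Hdac3 measured 153, 173 and 166 CPM with RvD1 and 172, 182 and 180 CPM under vehicle, and its log2 fold change was −0.12 (SE 0.09, edgeR unadjusted p = 0.195 and adjusted p = 0.971), or −0.07 without RvD1 replicate 1. Kdm1a measured 217, 197 and 209 CPM with RvD1 and 226, 225 and 207 CPM with vehicle. The groups overlapped for both genes, Kdm1a through vehicle replicate 3 and Hdac3 through RvD1 replicate 2. Kdm2b measured 20.3, 30.4 and 29.1 CPM with RvD1 and 27.7, 29.6 and 30.1 CPM with vehicle, and without RvD1 replicate 1, its lowest library, its log2 fold change went from −0.13 (SE 0.16, edgeR unadjusted p = 0.444 and adjusted p = 0.971) to 0.03.

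The other genes of highest level in their families did not pass the test either. Kdm5c measured 127, 148 and 137 CPM with RvD1 against 142, 138 and 122.8 CPM under vehicle, for a log2 fold change of 0.03 (SE 0.10, edgeR unadjusted p = 0.741 and adjusted p = 0.983). Kdm6a measured 111, 94.9 and 100.4 CPM against 105.6, 99.2 and 98.2 CPM, for 0.02 (SE 0.10, edgeR unadjusted p = 0.862 and adjusted p = 0.992). Their groups overlapped, and the sign of both turned with 1 library left out. Sirt1 measured 93.6, 90.6 and 72.0 CPM against 81.5, 82.4 and 73.6 CPM, for 0.11 (SE 0.12, edgeR unadjusted p = 0.380 and adjusted p = 0.971), and RvD1 replicate 3 was its lowest library. Leaving out RvD1 replicate 1 took that value to 0.04, and leaving out RvD1 replicate 3 took it to 0.22. For Sirt2 the log2 fold change was 0.14 (SE 0.24, edgeR unadjusted p = 0.585 and adjusted p = 0.971).

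By family, 7 of 11 Hdac genes, 12 of 16 Kdm genes tested and 6 of 7 Sirt genes had a log2 fold change above 0. The medians were 0.24, 0.10 and 0.14, and none of these genes passed the test. In all, 25 of the 34 members were above 0, beside 53.5% of all genes tested, and the median over the members was 0.13, beside 0.01 over all genes tested. On the log2(TPM + 1) scale, on which the median of all genes was 0.08, 31 of 34 members were above 0 and 3 below, beside 67.9% of all genes tested above 0. The summed level of the set was 2173 ± 73.6 CPM with RvD1 and 2144 ± 65.1 CPM with vehicle (SD, n = 3), which overlapped between the groups. The Hdac sum was lower with RvD1, at 940.3 ± 40.88 CPM against 969.2 ± 33.45 CPM with vehicle. Sums were 1029 ± 72.01 and 989.8 ± 78.36 CPM for Kdm, and 204.4 ± 33.21 and 185.1 ± 18.67 CPM for Sirt.

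This small excess was smaller without either of 2 libraries. RvD1 replicate 1 held the highest CPM of 14 of the 34 members (30.6% of all genes tested were highest there), and vehicle replicate 3 held the lowest CPM of 15 (19.1% of all genes tested were lowest there). These counts were chosen after the values were seen. The median deviation of the members from their mean over the 6 libraries was 0.15 on the log2 scale in RvD1 replicate 1 and −0.17 in vehicle replicate 3, and between −0.02 and 0.06 in the other 4. Over all genes it was between 0 and 0.02 in every library. Without RvD1 replicate 1 the median log2 fold change of the members was 0.02, with 19 of 34 above 0, and without vehicle replicate 3 it was 0.04, with 21 of 34 above 0. With both left out, the median difference in log2 CPM was −0.01 and 15 of 34 members were above 0.

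**Figure D3:**
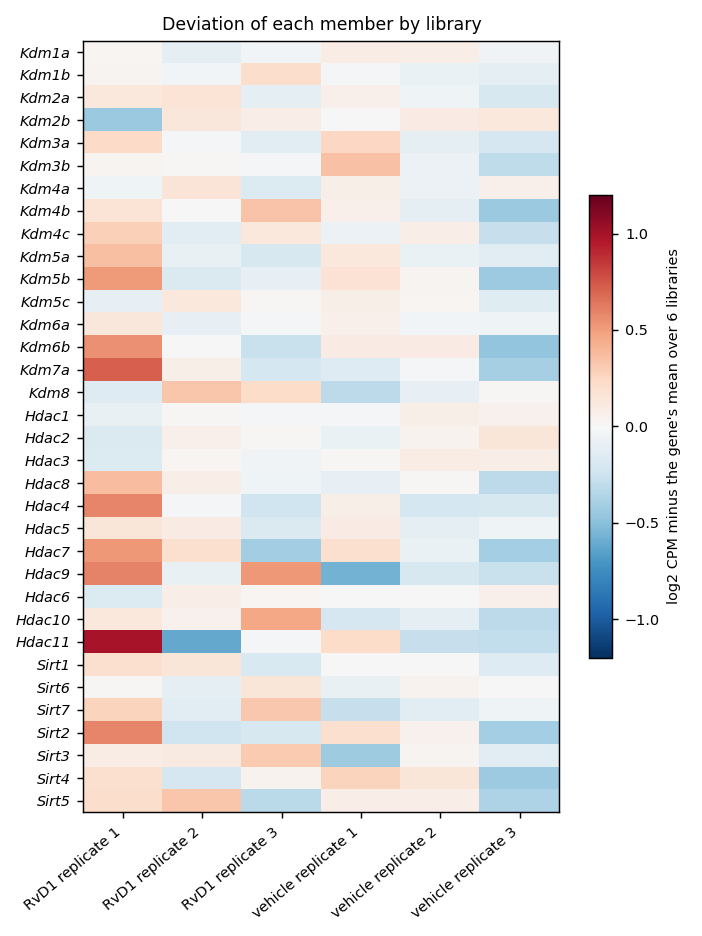
Log2 CPM of the 34 members tested in each library, minus the mean of the gene over the 6 libraries, in color from blue (lower) to red (higher). RvD1 replicate 1 is red for most class IIa genes, Hdac11, Sirt2, Kdm5b, Kdm6b and Kdm7a, while Kdm2b is blue there, and vehicle replicate 3 is blue for most Kdm genes.

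Members departed from the rest of their group in RvD1 replicate 1 in both directions. Hdac11 was at 8.86 CPM there and at 2.85 to 5.13 CPM in the other 5 libraries, and its variation between mice (biological coefficient of variation 35.1%) was the largest of the set, where the median was 15.7% over the members and 16.1% over all genes tested. Sirt2 was at 98.2 CPM there and at 49.3 to 74.8 CPM elsewhere. Kdm7a, which erases repressive marks, was at 50.2 CPM there and at 23.2 to 32.1 CPM elsewhere (log2 fold change 0.43, SE 0.23, edgeR adjusted p = 0.971), and Kdm5b, at 79.1 CPM there, was at 41.2 to 62.7 CPM elsewhere. Without this library the log2 fold change of Sirt2 went from 0.14 to −0.19, and without vehicle replicate 3 to −0.02.

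The 4 class IIa genes, Hdac4, Hdac5, Hdac7 and Hdac9, all had their highest CPM in RvD1 replicate 1. Hdac4 was at 35.7 CPM there and at 20.1 to 24.9 CPM elsewhere, and Hdac7 at 16.6 and 8.64 to 13.3 CPM. The lowest CPM of Hdac1, Hdac2, Hdac3, Hdac6 and Kdm2b was in the same library. The class IIa share of the summed Hdac TPM was 9.25%, 7.47% and 5.67% with RvD1 against 7.32%, 6.31% and 5.70% under vehicle. RvD1 replicate 1 was thus the highest and RvD1 replicate 3 the lowest, next to vehicle replicate 3, and the groups overlapped. In both groups the share fell from replicate 1 to replicate 3. Exons on the other strand cover 22.4% of the exon bases of Hdac4, 17.9% of Hdac11, 24.6% of Kdm3b and 9.2% of Kdm1b, so their counts carry the same limit as those of Sirt3.

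The same libraries were the extremes for genes of the cell cycle. The 12 proliferation markers summed to 1718, 2249 and 2477 TPM with RvD1 against 2173, 2173 and 2354 TPM under vehicle, and 11 of the 12 had a log2 fold change below 0 (median −0.11). Of all genes tested, 53.5% were above 0. These fold changes are from counts. On the TPM scale the mean was higher with RvD1 for Mki67, Ccna2, Mcm5 and Plk1 and lower for the other proliferation markers. Among MuSC markers, Pax7 was at 8.50 TPM and Calcr at 5.80 TPM in RvD1 replicate 1, and at 4.03 to 6.63 TPM and 0.82 to 3.02 TPM elsewhere. Myod1 was lowest there, at 239 TPM against 325 to 470 TPM. The part of these differences in the levels of the deacetylases was not tested.

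**Figure D4:**
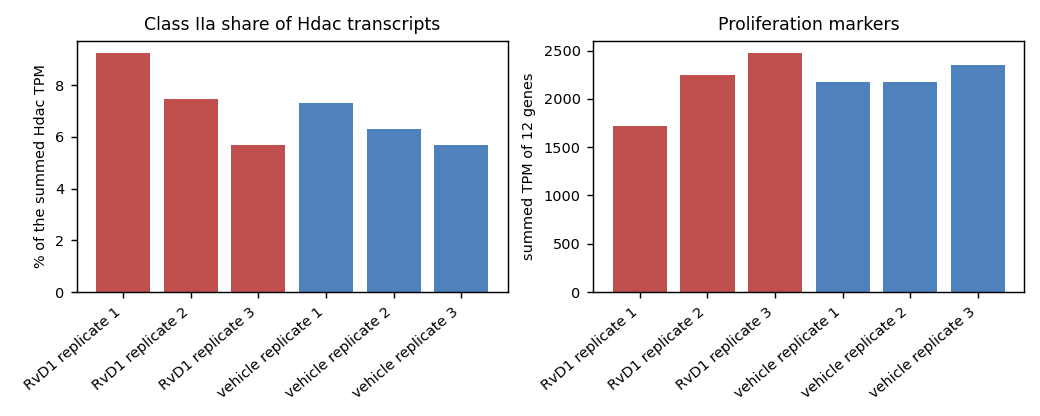
Left, percent of the summed TPM of the 11 Hdac genes that came from class IIa in each library; right, summed TPM of 12 proliferation markers in the same libraries, with RvD1 in red and vehicle in blue. RvD1 replicate 1 has the highest class IIa share (9.25%) and the lowest marker sum (1718 TPM), and RvD1 replicate 3 the reverse (5.67% and 2477 TPM).

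**Figure D5:**
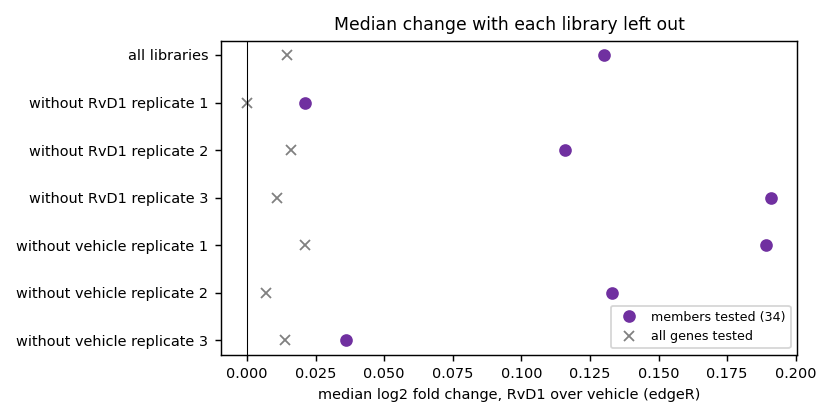
Median log2 fold change from edgeR over the 34 members tested (circles) and over all genes tested (crosses), with all libraries and with each of the 6 left out in turn. The circles move to 0.02 without RvD1 replicate 1 and to 0.04 without vehicle replicate 3, and lie between 0.12 and 0.19 in the other fits.

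Partner genes of these enzymes were read from the same fit, and none of them had an adjusted p under 0.05. For comparison, 53.5% of all genes tested were above 0 and 3.47% had an unadjusted edgeR p under 0.05. Of 31 corepressor complex subunits, such as the Sin3, NCoR, NuRD and CoREST scaffolds, 30 were found and tested, 8 above 0 and 22 below, with a median log2 fold change of −0.06. Mbd2, which binds methylated DNA in NuRD, had the smallest unadjusted p of that list, with a log2 fold change of 0.18 (SE 0.11, edgeR unadjusted p = 0.128). Of 11 histone acetyltransferases, 6 were above 0 and 5 below (median 0.02). Kat6a was the 1 gene among them with an unadjusted p under 0.05 with means of 6.95 TPM (RvD1) and 4.56 TPM (vehicle), its log2 fold change being 0.33 (SE 0.13, edgeR unadjusted p = 0.0306 and adjusted p = 0.971). Of 29 histone lysine methyltransferases, 17 were above 0 and 12 below (median 0.02), and the smallest unadjusted p was that of Smyd1, a muscle enzyme, with a log2 fold change of −0.41 (SE 0.19, edgeR unadjusted p = 0.0613). Of 13 other JmjC proteins, 8 were above 0 and 5 below (median 0.04, with Phf8 at 0.10). Of 12 genes of NAD supply and use, 9 were above 0 and 3 below (median 0.10, with Nmrk1 at 0.29). Of 18 genes for Mef2 factors, Ywha adaptor proteins and kinases that bind or phosphorylate class IIa deacetylases, 17 were tested, 7 above 0 and 10 below (median −0.03, with Sik1 at 0.17).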

How the data were processed

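RNA-Seq of sorted MuSCs from 6 mice was used. The authors aligned 76-base single-ended reads to mm10 with STAR 2.5.0a and quantified genes with RSEM, whose annotation is not given in the sources used here. The deposited expected counts are RSEM estimates not scaled for depth, and in the deposited TPM and FPKM files the authors had corrected for gene length and sequencing depth. A stray header line (1 per file) was removed. Expected counts were rounded and tested with edgeR 4.0.16 in R 4.3.3 (filterByExpr, TMM, quasi-likelihood test, 14494 genes), with a Benjamini-Hochberg threshold of 0.05. Standard errors are the fold change over the root of F, and 95% intervals use the degrees of freedom of the fit. CPM values were normalized by TMM. The study's limma-voom steps (limma 3.58.1, sva 3.50.0, 1 surrogate variable removed), DESeq2 1.42.0, other scalings, filters, units and left-out libraries were alternatives. The fits were tested on simulated data with planted changes larger than any estimated here for a member. That test does not show how well changes of the members' size would be detected. Positions and exon overlaps are from GENCODE M21 (GRCm38). Floors and intervals cover counting error and the spread between these mice. Members, lists and tests were chosen with earlier results of these data known. Statistics are given in full for members whose groups did not overlap, those past the adjusted threshold, the 3 of lowest unadjusted p on either side of 0, and the 3 of highest TPM per family, and of each list the gene of lowest unadjusted p is named. Other values chosen after they were seen are those of RvD1 replicate 1 and vehicle replicate 3 and the members named with them. Of the lists, the markers for label checks and the partner genes are described, and Mideas was not matched.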

Additional observations from a re-analysis of the deposited data

How the results depend on the processing

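No member had an adjusted p under 0.05 under any alternative run, and the smallest was 0.335, in the study's limma-voom steps with 1 surrogate variable removed. Some of the 14 members with full statistics were chosen by p or by lack of overlap in these data. The alternatives reuse the same libraries, so a kept direction is not independent support. Of the 266 fold changes of these 14 members, 252 kept their direction. The exceptions were Hdac1 (0.035 with log2(TPM + 1) and with log2(TPM + 0.1)), Kdm1a (0.043 and 0.044), Kdm5c (−0.026 with log2(FPKM + 1)) and fits without 1 library, over which the ranges were −0.122 to 0.002 for Hdac2, −0.239 to 0.034 for Kdm2b, −0.027 to 0.088 for Kdm5c, −0.049 to 0.068 for Kdm6a and −0.186 to 0.282 for Sirt2. The number of genes past the adjusted threshold, 0, was 12 without a filter on low counts, where more genes are tested, and 0 to 1 with a library left out (1 without RvD1 replicate 3). Members with an unadjusted p under 0.05, 1 in the fit reported, numbered 2 with library totals only (3.72% of all genes in that fit) and with a filter of 1 CPM in 3 libraries (3.47%), 3 without a filter (4.29%), 6 of 35 in the study's steps (17.1%, beside 11.2% of all genes), 0 with TPM + 1 (4.35%) and with FPKM + 1 (3.88%), and 0 to 4 with a library left out (4 without RvD1 replicate 2, beside 6.68% of all genes, and 0 without vehicle replicate 2 or 3, beside 1.77% and 1.86%). Members whose groups did not overlap, 3, numbered 4 to 9 of 34 (11.8% to 26.5%) with a library left out, where 2 values face 3 and 15.0% to 23.2% of all genes did not overlap. The median log2 fold change of the members ranged from 0.021 to 0.191 with a library left out and was −0.014 on log2 CPM with both RvD1 replicate 1 and vehicle replicate 3 out. The difference in summed TPM of the set, 75.9, fell to 33.4 with both out. Without RvD1 replicate 1 the log2 fold change of Hdac1 was −0.028, and without RvD1 replicate 2 that of Kdm1a was −0.043. Causes were not tested except where stated.

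Libraries of both groups share the numbers 1 to 3. Deviations from the group mean correlated across genes by 0.31, −0.001 and 0.13 for numbers 1, 2 and 3. Correlations between libraries of different numbers are not given here, so these values alone cannot decide whether the numbers pair mice. The fit reported used no pairing. With the replicate block in edgeR, 2 members had an unadjusted p under 0.05 (5.88%, beside 6.18% of all genes) and 0 an adjusted one. Kdm4d had too few counts to be tested.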

Other observations

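The files also allow the writers and erasers of histone marks to be set side by side by level. Summed TPM of the 29 methyltransferases was 847 to 857 with RvD1 and 790 to 807 with vehicle, without overlap, while their median log2 fold change on counts was 0.02. The 11 acetyltransferases summed to 487 TPM in RvD1 replicate 1 and to between 551 and 577 TPM in the other 5 libraries. The 30 corepressor subunits summed to between 2630 and 2715 TPM over all libraries. Summed TPM of all 35 demethylase, deacetylase and sirtuin genes was 1364 to 1452 with RvD1 and 1291 to 1360 with vehicle, also without overlap, although their summed CPM overlapped (2106 to 2252 and 2070 to 2194). The TPM scale was higher with RvD1 for most genes, and the part of that shift in both separations was not tested. Summed TPM of the acetyltransferases, the corepressor subunits, the other JmjC proteins, the NAD genes and the class IIa partners overlapped between groups. For the other JmjC proteins it was 314.6 to 332.6 with RvD1 and 298.4 to 315.2 with vehicle. On log2(TPM + 1), 67.9% of all genes tested were above 0. On TPM, 8.89% of single genes were higher without overlap and 2.52% lower.

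The markers with the smallest unadjusted p of their list were Ctss (log2 fold change −1.36), Ly6a (−0.62), Chodl (1.40, at 122.77 TPM in RvD1 replicate 1 and 10.8 to 27.5 TPM elsewhere), Cdk1 (−0.21) and Vwf (−0.92, though its mean was 1.07 TPM with RvD1 and 0.907 TPM with vehicle). All 5 had an edgeR adjusted p equal to 0.971.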
